A study of Homo sapiens with 30 samples.

Results

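HIF1A, EPAS1, EGLN1, EGLN3, BNIP3, BNIP3L, NDRG1, KDM3A, BHLHE40 and ERO1A were followed through 30 RNA libraries of LX2 cells, as 2 transcription factors of the low-oxygen response, 2 enzymes that mark them for destruction and 6 of their known target genes. They were the rows of the deposited expression table whose Ensembl identifiers match these 10 symbols, 10 of 61597 genes in all. They were chosen by name and function, with earlier results of these data known. LX2 is an established human line of activated hepatic stellate cells, the collagen-making cells of the injured liver, so all libraries come from 1 line grown in culture. Each of 6 groups was sequenced once in each of 5 experiments, with a 3′-end method that gives about 1 read per transcript (QuantSeq 3′, forward kit). The values are read counts scaled to the same library total (CPM, with a total of 1e+06).

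The groups cross a pretreatment with a growth factor. Veh+Veh cells received no fatty acid and no growth factor, and Veh+BTC cells received betacellulin (BTC), a ligand of the epidermal growth factor receptor family, at 20 ng/ml for 72 h. OLA+Veh and OLA+BTC cells received oleic acid, a monounsaturated fatty acid, and DHA+Veh and DHA+BTC cells received docosahexaenoic acid (DHA), an omega-3 fatty acid. Both fatty acids were used at 50 µM on 20 µM serum albumin, first in 2 cycles of 48 h and then again after cells were seeded at 40000 per well. No albumin level and no pretreatment cycles are listed for the groups without fatty acid, so whether they shared these steps is not known here. The labels give 72 h for that later exposure in one field and 96 h in another, and the last medium held 1% fetal calf serum in every group. Nothing in the labels says whether the 5 experiments used separate thaws or passages. The tests take out the level of each experiment, so the p-values reflect how much treatment differences vary among these experiments of 1 line.

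The hypoxia-inducible factors are heterodimers of an oxygen-sensitive α subunit, HIF-1α from HIF1A or HIF-2α from EPAS1, with the stable partner ARNT. With oxygen present, prolyl hydroxylases of the EGLN family modify the α subunit, the VHL ubiquitin ligase binds the modified protein, and the proteasome degrades it, so that control acts mostly on the protein and an RNA level does not report it. The stabilised factors bind short DNA elements near genes for glucose use, blood vessel growth and the removal of mitochondria. BNIP3 and BNIP3L are receptors of the outer mitochondrial membrane that tether mitochondria to the growing autophagosome. In stellate cells the pathway is known for its links to activation and scarring.

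The stretch before the start site of 4 of these genes is shown, because BNIP3 and ERO1A moved with DHA, HIF1A did not pass the test, and the order of the groups in BHLHE40 differed with and without BTC. Each is the 250 bases before the RefSeq start on GRCh38.p14, written 5′ to 3′ along the gene. Capitals mark the 5-base core of the element that HIF dimers bind, ACGTG or GCGTG, on either strand.
BNIP3: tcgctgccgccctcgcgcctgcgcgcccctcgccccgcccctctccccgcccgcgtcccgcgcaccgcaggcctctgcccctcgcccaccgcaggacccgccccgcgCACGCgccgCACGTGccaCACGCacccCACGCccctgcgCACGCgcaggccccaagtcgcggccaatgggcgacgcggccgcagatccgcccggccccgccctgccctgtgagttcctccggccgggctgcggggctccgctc
ERO1A: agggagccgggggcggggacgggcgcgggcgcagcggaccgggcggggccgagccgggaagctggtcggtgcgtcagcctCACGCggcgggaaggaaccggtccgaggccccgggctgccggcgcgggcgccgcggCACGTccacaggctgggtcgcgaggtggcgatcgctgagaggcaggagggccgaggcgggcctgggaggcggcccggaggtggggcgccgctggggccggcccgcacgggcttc
HIF1A: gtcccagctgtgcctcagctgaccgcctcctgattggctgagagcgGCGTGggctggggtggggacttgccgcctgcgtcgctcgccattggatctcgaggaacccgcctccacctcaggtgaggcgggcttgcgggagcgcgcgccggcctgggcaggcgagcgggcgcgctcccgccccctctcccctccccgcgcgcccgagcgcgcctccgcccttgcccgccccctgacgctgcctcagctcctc
BHLHE40: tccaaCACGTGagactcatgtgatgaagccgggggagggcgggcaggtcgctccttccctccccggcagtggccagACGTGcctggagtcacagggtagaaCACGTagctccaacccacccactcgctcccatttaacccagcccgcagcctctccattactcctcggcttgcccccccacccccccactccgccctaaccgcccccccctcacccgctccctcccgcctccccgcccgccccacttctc
These lie at chr10:131981924-131982173 (minus strand) for BNIP3, chr14:52695559-52695808 (minus strand) for ERO1A, chr14:61695263-61695512 (plus strand) for HIF1A and chr3:4979187-4979436 (plus strand) for BHLHE40. The BNIP3 stretch held 6 matches in 5 separate places, since ACGTG matches both strands where it forms CACGTG and those 2 matches overlap. The ERO1A stretch held 2 matches, the HIF1A stretch 1, and the BHLHE40 stretch 4 in 3 places, also with a CACGTG. Stretches were taken for 8 of the 10 genes, at 10 start sites, and 8 of these 10 stretches held at least 1 match. So did 43.2% of the 35116 stretches of the whole table. The 2 KDM3A stretches overlap and hold the same match, which is thus counted at both starts. The 2 without a match were EGLN3 and a second HIF1A start. The stretches of these genes had a median of 26 CpG pairs against 11 in the whole table, and both core sequences contain a CpG, so the shares are not on equal terms. A match is a description of letters and says nothing of binding. BNIP3L and NDRG1 were left out of this count by choice, and their stretches are not reported here. The share of the whole table had no such exclusion, so the 2 shares also rest on unlike sets.

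The table's columns are whole reads divided by the library total, between 1245182 and 9490142 reads per library (median 3683035), so that 3 reads, the limit that a count of 0 allows, stood for 0.316 to 2.41 CPM. The DHA libraries were the shallower ones, with 3028129 ± 1074169 reads (SD, n = 10) against 4515158 ± 1933237 in the libraries without fatty acid, and the 3 shallowest were DHA+BTC and DHA+Veh of experiment 5 and DHA+BTC of experiment 4. Of 12 markers of activated stellate cells, 11 averaged at least 1 CPM, desmin (DES) being the exception at 0.0394 CPM, and their summed level was 1713 to 4349 CPM per library. The 8 hepatocyte markers summed to at most 5.25 CPM, with TTR at 0 in all libraries. Epithelial and bile duct markers summed to 30.2 to 102 CPM without fatty acid and 45.7 to 166 CPM with DHA, and leukocyte and macrophage markers to 11.5 to 54.6 and 11.2 to 54.6 CPM. Endothelial markers summed to at most 9.69 CPM without fatty acid, 47.0 CPM with oleic acid and 10.8 CPM with DHA. With DHA against vehicle, 2 of the 11 tested stellate markers rose and 6 fell, 1 of 5 epithelial markers rose and 1 of 5 leukocyte markers fell. Of all 15137 genes tested, 352 rose and 1269 fell (10.7% called), a smaller share than among the stellate markers. The part of these marker changes or of depth in the results on the 10 genes was not tested beyond leaving out the shallowest libraries. In these bulk samples, fewer cells of a type and less RNA per cell cannot be told apart.

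Differences were tested across all genes that reached 1 CPM in at least 5 libraries, 15137 in number, with limma on log2(CPM + 1), experiment as a block and Benjamini-Hochberg adjustment over all of them. A gene is said to have risen or fallen where its adjusted p was under 0.05, and every difference is in units of log2(CPM + 1), where low genes show less than their true change. Of the 10 genes, 8 could be tested, and EGLN1 and EGLN3 were too low.

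With DHA, 3 of the 8 genes tested rose and none fell: BNIP3 more than doubled, and BNIP3L and ERO1A, an oxidase of the endoplasmic reticulum, rose by smaller amounts. Of all genes tested, 10.7% changed in this comparison and 2.33% were called higher, 352 rising and 1269 falling (454 and 496 with edgeR on TMM-scaled reads). The median difference of the 8 was 0.37, and that of all genes -0.13, which quantile normalization moved to 0.00. Neither factor gene passed the test, neither did NDRG1, KDM3A or BHLHE40, and no gene of the 10 was called with oleic acid or BTC averaged over the other treatment. These averaged comparisons count the BTC and no-BTC libraries of one experiment as separate observations, and DHA is set against the same vehicle libraries that oleic acid is set against.

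**Figure D1:**
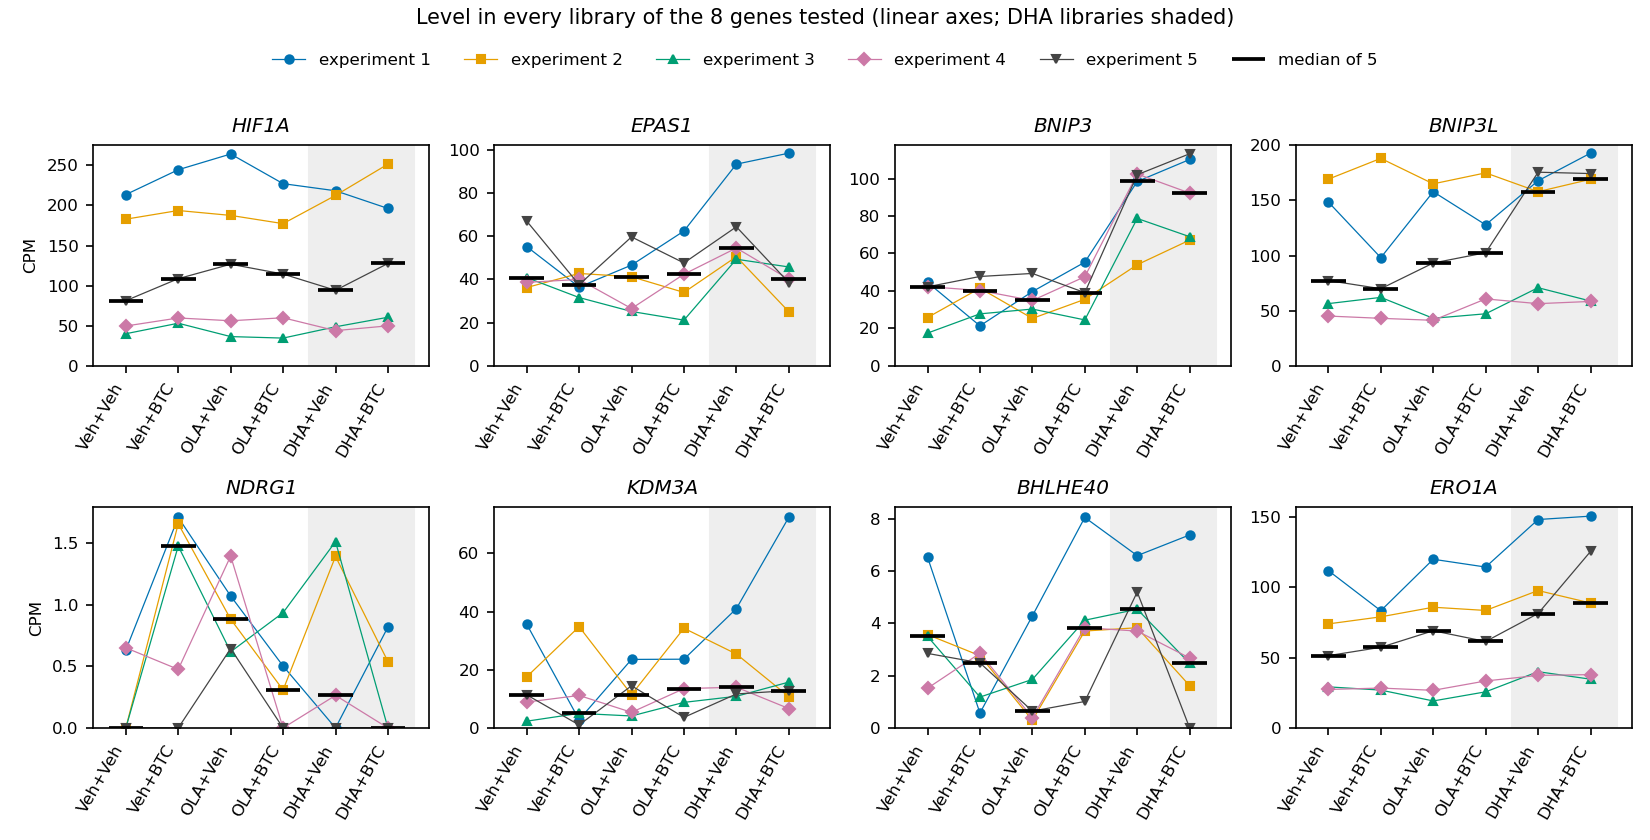
Level in CPM (vertical axes, linear, each starting at 0) of the 8 genes tested in each of the 30 libraries, by group (horizontal axes). Points and thin lines are the 5 experiments, black bars the median of 5, and the shaded span holds the DHA groups: BNIP3 lies at 54.0 CPM or above in every DHA library and at 47.7 CPM or below in every vehicle library, whereas HIF1A, BNIP3L and ERO1A are ordered mainly by experiment.

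HIF1A, the gene of the α subunit that responds to acute loss of oxygen, differed far more between experiments than between treatments. In Veh+Veh cells it stood at 214, 183, 40.1, 49.7 and 81.3 CPM in experiments 1 to 5. In DHA+Veh cells the same experiments gave 218, 213, 48.7, 43.9 and 94.2 CPM, and in DHA+BTC cells 196, 252, 60.6, 49.9 and 128 CPM. The groups overlapped throughout, and in each of them experiments 1 and 2 were high and experiments 3 and 4 low. Over the 30 libraries experiment took 95.6% of the sum of squares of HIF1A on the log scale, and fatty acid 0.112%. The difference between DHA and vehicle was 0.08 ± 0.11 (SE), with a 95% confidence interval of -0.15 to 0.31 and an adjusted p of 0.733 by limma. DHA was above vehicle in 3 of 5 experiments. A change of up to 0.31 is therefore within the interval, and a larger one is not.

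The other groups of HIF1A covered the same range. Veh+BTC cells had 245, 194, 53.2, 59.7 and 109 CPM, OLA+Veh cells 264, 188, 36.5, 56.3 and 127 CPM, and OLA+BTC cells 227, 177, 34.7, 59.998 and 115 CPM. The difference between oleic acid and vehicle was 0.03 (interval -0.21 to 0.26), and that between BTC and its vehicle 0.13 (interval -0.06 to 0.32).

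EPAS1, the gene of HIF-2α, the subunit linked to longer low oxygen and to blood vessel cells, had higher means with DHA but did not pass the test. Without BTC it stood at 55.2, 36.3, 40.9, 38.6 and 67.0 CPM in Veh+Veh, at 46.6, 41.2, 25.2, 26.5 and 59.7 CPM in OLA+Veh, and at 93.3, 50.5, 49.3, 54.5 and 64.3 CPM in DHA+Veh cells. DHA+Veh was above OLA+Veh in all 5 experiments and above Veh+Veh in 4, although the ranges overlap. With BTC the values were 36.5, 42.8, 31.6, 40.0 and 37.6 CPM in Veh+BTC, 62.4, 34.0, 21.2, 42.4 and 47.6 CPM in OLA+BTC, and 98.4, 25.1, 45.8, 40.1 and 38.5 CPM in DHA+BTC cells. There 1 library, DHA+BTC of experiment 1, stands high, and the DHA+BTC library of experiment 2 is the lowest of its group. Averaged over BTC, the difference between DHA and vehicle was 0.31 ± 0.16 (interval -0.02 to 0.65, limma adjusted p = 0.233), which passed with DESeq2 alone among the alternatives (adjusted p = 0.0339). Against oleic acid it was 0.43 ± 0.16 (interval 0.09 to 0.76, adjusted p = 0.0872 by limma), and this one passed with edgeR, DESeq2, the scaling by median of ratios and quantile normalization, without experiment 2, and without DHA+BTC of experiment 2 alone (adjusted p = 0.0323).

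The prolyl hydroxylase genes were close to absent from the reads. EGLN1, which encodes the main oxygen sensor of the family, had 0 to 7 reads per library. Its highest level was 3.21 CPM in DHA+BTC of experiment 5, from 4 reads in the shallowest library, and in experiment 4 none of the 6 libraries had a read. EGLN3, which encodes a family member that HIF itself induces, had 2 reads in Veh+BTC of experiment 3, which is 0.591 CPM, and 0 reads in each of the other 29 libraries, which allows at most the 3-read limit given above. EGLN2, the remaining member of the family, was listed at a mean of 0.0281 CPM. Some widely used genes were also listed near 0 here, such as ALDOA at 0.0715 CPM and TXNDC5 at 0. In GENCODE v29, a gene on the same strand overlaps the last 500 bases of the 3′ end of ALDOA, TXNDC5 and EGLN2, and none overlaps an exon of EGLN1 or EGLN3. A level near 0 is thus what the table lists, and not a statement that the cells lack the enzymes.

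BNIP3, the mitophagy receptor with a BH3-like segment, separated the DHA libraries from those without fatty acid. In Veh+Veh cells it stood at 44.6, 25.8, 17.5, 42.3 and 42.2 CPM, and in Veh+BTC cells at 21.4, 41.5, 27.8, 40.2 and 47.7 CPM. In DHA+Veh cells it stood at 98.4, 54.0, 78.7, 102 and 102 CPM, and in DHA+BTC cells at 110, 67.1, 68.97, 92.3 and 113 CPM. Every DHA library was above every vehicle library, also when the libraries with and without BTC are put together. This held for 2 of the 15137 genes tested, or 0.0132% of them, and the other was ANGPTL4, a secreted inhibitor of lipoprotein lipase. Within 1 level of BTC, 0.218% of the genes had all 5 DHA libraries above all 5 vehicle libraries, both without and with BTC.

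The oleic acid libraries of BNIP3 overlapped those of the vehicle. OLA+Veh cells had 39.7, 25.3, 30.3, 34.9 and 49.3 CPM, and OLA+BTC cells 55.4, 35.5, 24.5, 47.6 and 39.1 CPM. Within each level of BTC the DHA and oleic acid libraries did not overlap, and across levels 1 pair did, since OLA+BTC of experiment 1 at 55.4 CPM was above DHA+Veh of experiment 2 at 54.0 CPM. Ordered by mean, the groups ran from DHA+BTC (90.4 ± 21.9 CPM, SD, n = 5) and DHA+Veh (87.1 ± 20.9) to OLA+BTC (40.4 ± 11.8), OLA+Veh (35.9 ± 9.20), Veh+BTC (35.7 ± 10.8) and Veh+Veh (34.5 ± 12.1). Only the step from DHA+Veh to OLA+BTC was larger than the spread within the groups.

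Averaged over BTC, BNIP3 differed between DHA and vehicle by 1.35 ± 0.15 (interval 1.04 to 1.65), a fold of 2.54, with an adjusted p of 5.33e-07 by limma. The difference was positive in 5 of 5 experiments, between 0.86 and 1.72. Without the 3 shallowest libraries it was 1.38, and without the block BNIP3 still passed (adjusted p = 0.00187). Against oleic acid the difference was 1.20 ± 0.15 (limma adjusted p = 3.14e-06), where 11.4% of all genes changed and 2.4% were called higher, and 2 of the 8 genes rose, BNIP3 and ERO1A. Oleic acid differed from vehicle by 0.14 (interval -0.16 to 0.45) and BTC from its vehicle by 0.09 (interval -0.15 to 0.34).

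The response of BNIP3 was of like size with and without the growth factor. DHA differed from vehicle by 1.36 ± 0.21 without BTC and by 1.34 ± 0.21 with BTC (limma adjusted p = 0.000637 and 0.000517), and the difference between these was -0.02, with an interval of -0.63 to 0.59. Without BTC, BNIP3 was the only 1 of the 8 genes called, at a background of 1.54% of all genes (0.595% called higher). With BTC, BNIP3 and ERO1A were called, at 3.55% (1.08% called higher). Without the block neither difference passed for any of the 8 genes (BNIP3, adjusted p = 0.246 and 0.185), and with the Veh+BTC and DHA+BTC libraries alone neither did the one with BTC (BNIP3, adjusted p = 0.168).

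**Figure D2:**
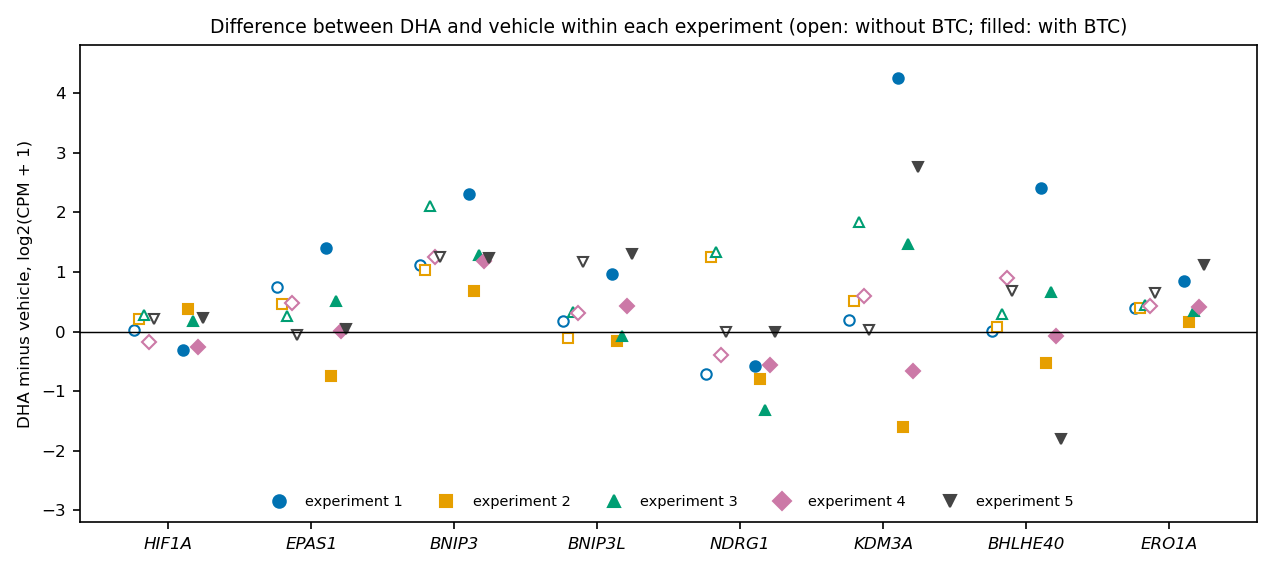
Difference between the DHA and the vehicle library of the same experiment, in log2(CPM + 1) (vertical axis), for the 8 genes tested, with open symbols for the pair without BTC and filled symbols for the pair with BTC, 1 symbol shape per experiment. All 10 points of BNIP3 and all 10 of ERO1A are above 0, whereas HIF1A, EPAS1, BNIP3L, NDRG1, KDM3A and BHLHE40 have points on both sides.

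BNIP3L, the sister receptor of BNIP3 that clears mitochondria from maturing red cells, rose less and less evenly. Veh+Veh cells had 148, 169, 56.4, 45.2 and 77.3 CPM, and Veh+BTC cells 98.1, 188, 62.1, 43.1 and 69.9 CPM. DHA+Veh cells had 168, 158, 70.8, 56.4 and 175 CPM, and DHA+BTC cells 193, 169, 58.8, 58.4 and 174 CPM. The groups overlap because the experiments differ, which took 84.1% of the sum of squares, and experiment 5 moved most, its 2 DHA libraries standing at 175 and 174 CPM against 77.3 and 69.9 CPM in the vehicle. Averaged over BTC the difference was 0.44 ± 0.13 (interval 0.16 to 0.71, limma adjusted p = 0.0338), positive in 4 of 5 experiments. It was lost without experiment 5 (0.24, adjusted p = 0.343), on dropping the 3 shallowest (0.27, adjusted p = 0.330), without the block (adjusted p = 0.764), and with the 2 libraries of an experiment averaged first (adjusted p = 0.140). It also ended without any 1 of 8 libraries, namely Veh+Veh 4 and 5, Veh+BTC 1 and 5, DHA+Veh 3 and 5 and DHA+BTC 1 and 5, with adjusted p between 0.0506 and 0.0850. Of 46 alternatives in all, 30 gave the same result, so the settings named here are not all that changed it.

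Oleic acid libraries of BNIP3L were at 158, 165, 43.1, 41.3 and 93.2 CPM without and 128, 175, 47.2, 60.7 and 103 CPM with BTC. They lay inside the range of the vehicle libraries but for OLA+Veh of experiment 4, the lowest of all 30 libraries. DHA differed from oleic acid by 0.36 ± 0.13 (interval 0.09 to 0.64), which did not pass (limma adjusted p = 0.0763). It passed with DESeq2 (adjusted p = 0.0102), edgeR (0.0266) and the scaling by median of ratios (0.0255), without experiment 2 (0.0464) and without DHA+Veh of experiment 2 alone (0.0458). The gene PNMA2 lies on the opposite strand over the 3′ end of BNIP3L, averaged 8.10 CPM, and could share reads with it if strand was not used in counting, which the sources used here do not state. BNIP3 itself has no overlapping gene in that annotation but many processed copies, of which BNIP3P1 was the 1 listed above 0, at a mean of 0.994 CPM.

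ERO1A passes electrons from protein disulphide isomerase to oxygen during protein folding and is a HIF target. In Veh+Veh cells it stood at 112, 73.9, 29.2, 27.4 and 51.3 CPM, and in Veh+BTC cells at 83.2, 78.9, 26.9, 28.3 and 57.3 CPM. In DHA+Veh cells it stood at 148, 97.6, 40.0, 37.3 and 81.2 CPM, and in DHA+BTC cells at 150, 88.7, 34.6, 37.9 and 125 CPM. The ranges overlap, since experiments 3 and 4 were low in every group, but within each experiment DHA was the higher one both with and without BTC. Averaged over BTC the difference was 0.52 ± 0.12 (interval 0.28 to 0.76, limma adjusted p = 0.00395), positive in 5 of 5 experiments, between 0.28 and 0.88. With the 3 shallowest dropped it was 0.45 (adjusted p = 0.0357), and without the block, which removes the differences between experiments, it did not pass (adjusted p = 0.714).

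Oleic acid libraries of ERO1A were at 120, 85.7, 19.2, 26.7 and 69.02 CPM without and 114, 83.4, 25.7, 33.4 and 61.4 CPM with BTC. Against these DHA was higher by 0.43 ± 0.12 (limma adjusted p = 0.0168), and this call was lost on dropping the 3 shallowest (adjusted p = 0.109), experiment 3, 4 or 5 (adjusted p = 0.0872, 0.0662 and 0.0730), with libraries of an experiment averaged (adjusted p = 0.0922) and without the block. Taken with BTC alone, ERO1A differed between DHA and vehicle by 0.58 ± 0.17 (limma adjusted p = 0.0479), a call that ended on leaving out any 1 of 24 of the 30 libraries (adjusted p up to 0.199) and stood on leaving out each of the other 6. Without BTC alone it differed by 0.47 ± 0.17 and was not called (limma adjusted p = 0.167).

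KDM3A, a histone demethylase that HIF induces, was uneven between libraries of the same group. Veh+Veh cells had 35.7, 17.6, 2.33, 8.90 and 11.4 CPM, Veh+BTC cells 2.85, 34.8, 5.02, 11.2 and 1.04 CPM. DHA+Veh cells had 41.0, 25.4, 10.9, 14.0 and 11.7 CPM, DHA+BTC cells 72.5, 10.8, 15.8, 6.69 and 12.8 CPM. DHA was above vehicle in all 5 experiments without BTC and in 3 of 5 with BTC, where the differences ran from -1.60 in experiment 2 to 4.25 in experiment 1. Averaged over BTC the difference of 0.94 ± 0.37 (interval 0.18 to 1.70) did not pass (limma adjusted p = 0.103). It passed without experiment 2 (1.31, adjusted p = 0.0270), without Veh+BTC or DHA+BTC of experiment 2 alone (adjusted p = 0.0305 and 0.0397), and after quantile normalization (adjusted p = 0.0457). OLA+Veh cells had 23.6, 11.5, 4.13, 5.39 and 14.5 CPM and OLA+BTC cells 23.7, 34.3, 8.80, 13.5 and 3.65 CPM.

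BHLHE40, a repressor of transcription that HIF and the circadian clock induce, was low, with 0 to 62 reads per library, and the order of its groups differed with and without BTC. Without BTC it stood at 6.53, 3.57, 3.502, 1.52 and 2.85 CPM in Veh+Veh, at 4.29, 0.295, 1.86, 0.399 and 0.645 CPM in OLA+Veh and at 6.59, 3.83, 4.54, 3.71 and 5.20 CPM in DHA+Veh cells. In each experiment OLA+Veh was the lowest and DHA+Veh the highest of these 3. With BTC it stood at 0.570, 2.76, 1.18, 2.86 and 2.49 CPM in Veh+BTC, at 8.05, 3.71, 4.12, 3.83 and 1.01 CPM in OLA+BTC and at 7.38, 1.62, 2.47, 2.67 and 0 CPM in DHA+BTC cells. Here OLA+BTC was above DHA+BTC in all 5 experiments, and the DHA+BTC library of experiment 5 had no read, which allows up to 2.41 CPM.

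Without BTC, DHA was above oleic acid by 1.41 ± 0.40 in BHLHE40 (interval 0.59 to 2.23, limma adjusted p = 0.0469), where 3.27% of all genes changed and 0.892% were called higher. BNIP3 (1.25) was the other gene of the 8 called there. The BHLHE40 call ended on leaving out any 1 of 20 of the 30 libraries (adjusted p up to 0.166), with edgeR (adjusted p = 0.0732), with no filter on low values (adjusted p = 0.122) and without experiment 2, 3, 4 or 5. With BTC the same difference was -0.58 ± 0.40 (adjusted p = 0.496 by limma), and BNIP3 alone was called, at 1.72% of all genes (0.608% called higher). That BNIP3 call ended without the block (adjusted p = 0.542), with the OLA+BTC and DHA+BTC libraries alone (adjusted p = 0.0779) and without experiment 3 or 5 (adjusted p = 0.05003 and 0.0514), and the one without BTC ended without the block (adjusted p = 0.388). The change of the difference with BTC was -1.99 ± 0.57 (interval -3.16 to -0.83, unadjusted p = 0.00147), which did not pass (limma adjusted p = 0.999). BTC was above its vehicle after oleic acid in 5 of 5 experiments (1.11 ± 0.40) and below it after DHA in 4 of 5 (-0.88 ± 0.40), neither passing (limma adjusted p = 1.00 in both).

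NDRG1, a stress-response gene often used to mark low oxygen, stayed at the edge of detection, between 0 and 1.71 CPM from 0 to 9 reads. It had no read in 3 of 5 Veh+Veh, 1 of 5 Veh+BTC, 2 of 5 OLA+BTC, 2 of 5 DHA+Veh and 3 of 5 DHA+BTC libraries, and at least 2 reads in each OLA+Veh library. At this depth no fold can be read from it, and the difference between DHA and vehicle was -0.17 (interval -0.60 to 0.25, limma adjusted p = 0.663).

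**Figure D3:**
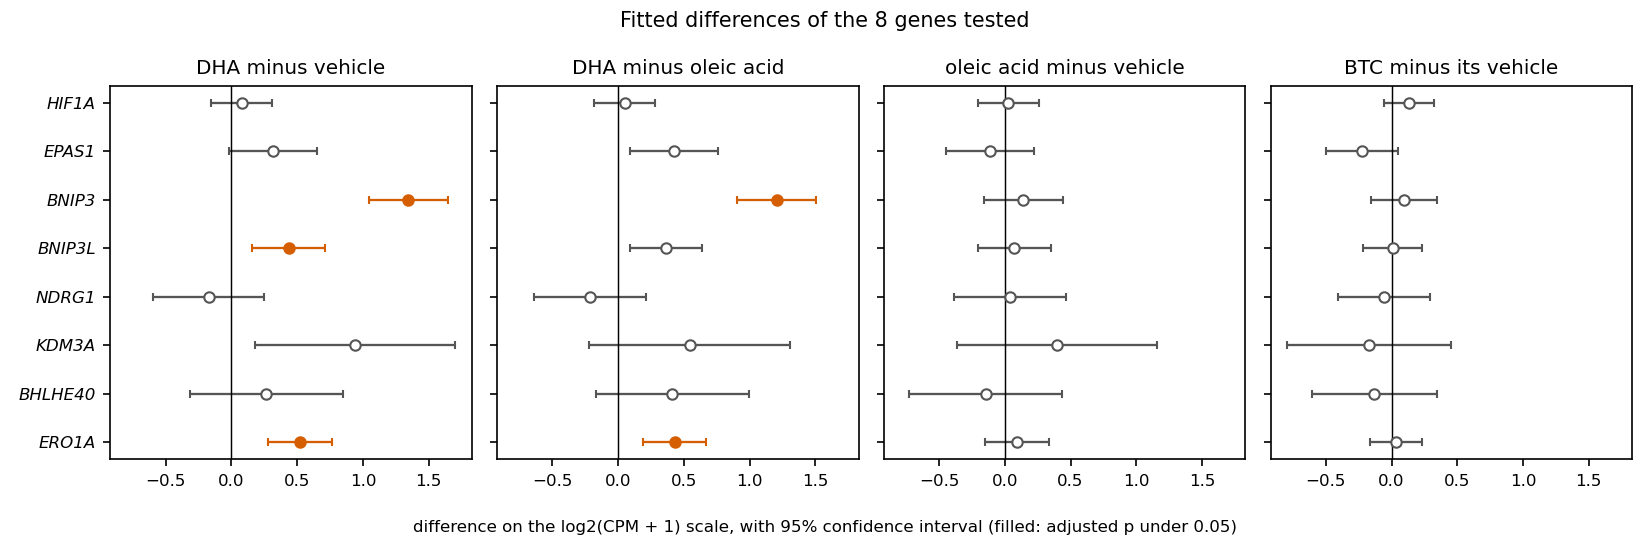
Fitted difference (horizontal axes, log2(CPM + 1) scale) with its 95% confidence interval for the 8 genes tested, in 4 comparisons averaged over the other treatment. Filled orange points have an adjusted p under 0.05. The filled points are BNIP3, BNIP3L and ERO1A for DHA minus vehicle and BNIP3 and ERO1A for DHA minus oleic acid, and the other 2 panels have none.

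Oleic acid and BTC called none of the 8 genes and no gene at all. With oleic acid against vehicle, 0 of the 15137 genes passed with limma, 302 had an unadjusted p under 0.05, and edgeR and DESeq2 also called 0. With BTC against its vehicle these counts were 0 with limma, 609 at an unadjusted p under 0.05, and 0 with both other tools. The change of the DHA difference with BTC gave 0 calls with limma, 527 genes at an unadjusted p under 0.05 and again 0 with edgeR and DESeq2. In the remaining comparisons within 1 level of the other treatment and the 2 further interactions, limma called 0 genes, with 299 to 1539 at an unadjusted p under 0.05. For BTC these counts were 1539 without fatty acid, 299 after oleic acid and 629 after DHA. For oleic acid against vehicle they were 468 without and 1044 with BTC. The interaction of oleic acid and BTC had 1279, and that of BTC with DHA against oleic acid 572. The other tools were not run on these comparisons. Where no gene differs, a share of about 0.05 of the 15137 genes would be expected at such an unadjusted p. The intervals for BTC in BNIP3L (-0.22 to 0.23) and ERO1A (-0.16 to 0.23) were narrow, and that in KDM3A (-0.80 to 0.45) was wide.

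The spread of each gene over the 30 libraries followed different sources. Experiment took 95.6% of the sum of squares in HIF1A, 88.4% in ERO1A and 84.1% in BNIP3L, but 16.1% in BNIP3. Fatty acid took 70.3% in BNIP3, and between 0.112% in HIF1A and 13.5% in EPAS1 among the other 7. The combination of fatty acid and BTC took 29.4% in BHLHE40 and 25.4% in NDRG1, both near the limit of detection. HIF1A, BNIP3L and ERO1A were lower in experiments 3 and 4 than in the other 3 experiments in every group.

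**Figure D4:**
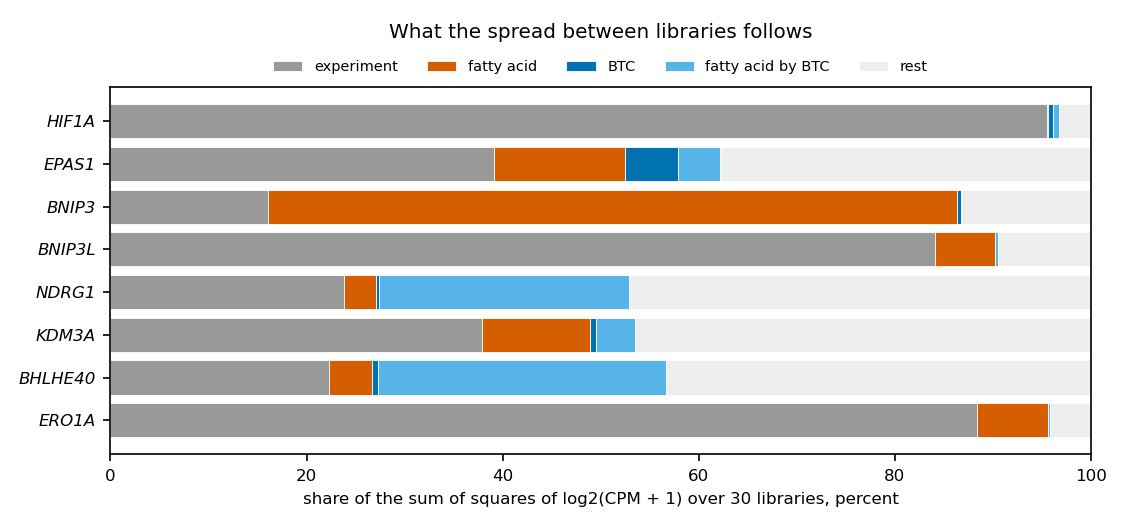
Share of the sum of squares of log2(CPM + 1) over 30 libraries (horizontal axis, percent) taken by experiment, fatty acid, BTC, their combination and the rest, for the 8 genes tested. The orange part, fatty acid, is 70.3% in BNIP3 and at most 13.5% in the others.

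After the mean of each experiment was subtracted, the genes that rose followed one another over the 30 libraries: Pearson's r was 0.84 between BNIP3L and ERO1A, 0.79 between BNIP3 and ERO1A and 0.67 between BNIP3 and BNIP3L. HIF1A followed none of them closely (0.14 with BNIP3, 0.13 with BNIP3L and 0.29 with ERO1A). The pattern was not limited to genes that were called. With BNIP3, BNIP3L and ERO1A in turn, r was 0.60, 0.58 and 0.54 for KDM3A and 0.51, 0.42 and 0.45 for EPAS1. It was 0.15 to 0.36 for BHLHE40 and below 0 for NDRG1. These values describe 30 libraries that share treatments and depth, and carry no test. Among all other genes with a mean of at least 5 CPM, the patterns most like BNIP3 were those of TNFSF15 (r = 0.90), TFPI2 (0.89) and CXCL1 (0.89), a cytokine, a protease inhibitor and a chemokine. Those most like ERO1A were ODC1 (0.88), CXCL8 (0.87) and IL1B (0.87), and those most like BNIP3L were RND3 (0.88), METRNL (0.85) and CXCL3 (0.85). KDM3A was most like MRPL45 (0.91), PODXL (0.91) and HSPE1 (0.90), EPAS1 like EMC1 (0.81), IRF2BPL (0.80) and SLC31A1 (0.79), HIF1A like NCOA3 (0.74), GXYLT1 (0.72) and MYO5A (0.68), and BHLHE40 like ALG14 (0.75) and MAP2K1 (0.73).

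Of 15 other listed partners and regulators of the HIF system 13 were tested, and with DHA 0 rose and 1 fell by limma, where 10.7% of all genes were called and 1269 of 15137 fell, so that this count is near the background. The list had a median of -0.19 beside -0.13 for all genes. The gene that fell was ARNT2, a partner subunit related to ARNT, from 28.9 ± 10.6 to 13.2 ± 4.90 CPM (SD, n = 10; difference -1.07 ± 0.17, limma adjusted p = 0.000107). ARNT, the usual partner, differed by -0.44 ± 0.24 (adjusted p = 0.251 by limma), VHL by -0.22 ± 0.14 (adjusted p = 0.336) and HIF1AN, which encodes the asparagine hydroxylase that silences HIF, by -0.23 ± 0.14 (adjusted p = 0.286). HIF3A was listed at a mean of 0.0330 CPM and was not tested.

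Of 35 tested HIF targets outside glycolysis, 19 rose with DHA and 0 fell by limma, with a median of 0.64, where 2.33% of all genes were called higher. The 4 with the smallest p were ANGPTL4, STC1, a secreted glycoprotein of calcium and phosphate balance, PPFIA4, a liprin, and DDIT4, an inhibitor of mTORC1. ANGPTL4 averaged 7.62 ± 5.61 CPM in the vehicle groups and 230 ± 187 CPM in the DHA groups (SD, n = 10 each, difference 4.76 ± 0.32, limma adjusted p = 2.36e-11). With oleic acid it stood at 16.3 ± 7.90 CPM (difference from vehicle 1.19 ± 0.32, unadjusted p = 0.000801, limma adjusted p = 0.9995). STC1 differed by 2.81 ± 0.29, DDIT4 by 2.38 ± 0.36 and PPFIA4 by 1.68 ± 0.24. Against oleic acid 18 of the 35 rose and 0 fell, where 2.4% of all genes were called higher. Without the 3 shallowest libraries the counts were 12 against vehicle and 10 against oleic acid, beside 189 and 183 genes higher in the whole table. Without experiment 4 and 5 the count against oleic acid was 10 and 11, beside 191 and 208. Without the block the counts were 7 and 4, beside 49 and 36. This list, like the others, was chosen with earlier results of these data known. Its counts beside the background thus describe these data and are not an independent test. A gene on these lists can also be controlled in other ways, and what drove the rises was not tested. CA9, a carbonic anhydrase widely used as a sign of low oxygen, had no read in the 30 libraries. As for the EGLN genes, such a listed level is not a statement that the cells lack it.

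Of 21 tested glycolytic targets, 11 rose with DHA and 0 fell by limma, with a median of 0.48, beside 2.33% of all genes called higher. PGK1, an enzyme of the pay-off phase, went from 384 ± 106 to 804 ± 341 CPM (difference 0.99 ± 0.14, limma adjusted p = 1.84e-05) and ENO2, an enolase, from 89.3 ± 35.2 to 166 ± 55.9 CPM (0.92 ± 0.12). The glucose transporter SLC2A3 (1.12 ± 0.17) and PFKFB3, which makes the activator of phosphofructokinase (1.17 ± 0.20), rose too. Against oleic acid 12 of 21 rose, beside 2.4% of all genes called higher, without the 3 shallowest libraries 8 against vehicle and 7 against oleic acid, and without the block 3 and 2.

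Of 27 other tested genes of mitophagy and autophagy 2 rose and 2 fell with DHA by limma, a share near the 10.7% of all genes called, and the list median was 0.00 (0.12 with edgeR). SQSTM1, the cargo receptor p62, rose from 721 ± 302 to 1491 ± 728 CPM (difference 1.00 ± 0.13, limma adjusted p = 8.87e-06), and GABARAPL1, an autophagosome membrane protein that binds such receptors, from 144 ± 40.6 to 209 ± 45.4 CPM (0.55 ± 0.11, limma adjusted p = 0.000846). PINK1, a kinase that marks damaged mitochondria, differed by -0.40 ± 0.11 (limma adjusted p = 0.0174) and the receptor OPTN by -0.55 ± 0.17 (limma adjusted p = 0.0294). Both falls ended under the other scalings, with edgeR (adjusted p = 0.160 and 0.170) and DESeq2, and OPTN's also without any 1 of 7 libraries. The 9 tested genes of oxidative protein folding, the process that ERO1A serves, had 0 called with limma, edgeR and DESeq2, and a median of 0.04. P4HB, the protein disulphide isomerase that ERO1A reoxidises, differed by 0.20 ± 0.12 (limma adjusted p = 0.317).

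**Figure D5:**
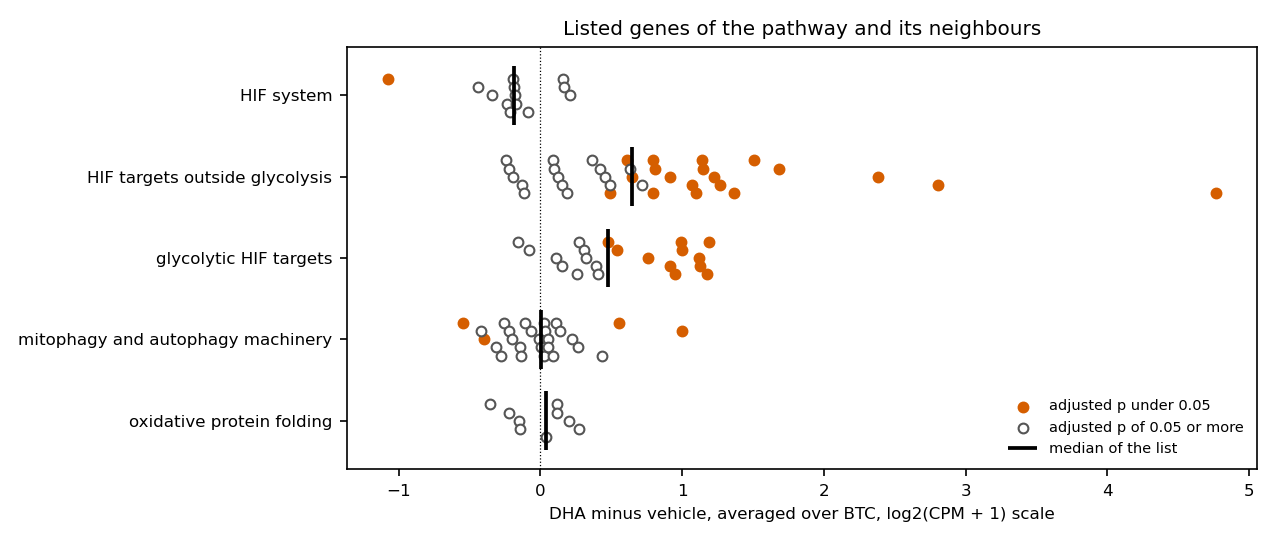
Difference between DHA and vehicle, averaged over BTC (horizontal axis, log2(CPM + 1) scale), of each tested gene in 5 lists (vertical axis), with filled orange points at an adjusted p under 0.05, open points above it and a black bar at the list's median. Orange points lie to the right of 0 in both lists of HIF targets (19 of 35 and 11 of 21), and the HIF system has a single one, ARNT2, on the left.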

How the data were processed

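RNA of 30 LX2 libraries was measured by 3′-end sequencing. The submitters' processing notes list STAR 2.5.3a, an aligner, and HTSeq 0.6.0, a read counter. Build, annotation and strand setting are not given in the sources used here. The deposited table holds CPM values made by the authors, which sum to 1e+06 per library. All values were whole reads within 0.01 read, so reads were recovered for edgeR 4.0.16 and DESeq2 1.42.0, run as alternatives. Of 61597 identifiers 61444 matched a symbol.

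CPM were tested as log2(CPM + 1) with limma 3.58.1 (R 4.3.3, trended prior), on 15137 genes with at least 1 CPM in at least 5 libraries, with all 30 libraries, group and experiment in the model, and a threshold of 0.05. The labels number the experiments 1 to 5 as cohorts. After group means were subtracted, all 75 pairs of libraries of the same experiment correlated (lowest r 0.119, median 0.507), so the numbers were taken as pairing, and no libraries were identical. The fit was tested on simulated data.

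The 10 genes and all lists were chosen with earlier results of these data known. All 10 genes are described. Of each list, up to 4 genes with the smallest p in a comparison and any gene of the HIF system could be named, and for each gene the 3 most similar genes with a symbol and a mean of at least 5 CPM. Some genes that these rules name are not reported here. Alternatives were other pseudocounts, filters, scalings and tools, fits without the block, and leaving out libraries or experiments. Those for list counts, and for DHA against oleic acid at 1 level of BTC, were chosen after seeing the data. Promoter stretches come from RefSeq (GRCh38.p14), and intervals and floors cover counting error only where they rest on reads.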

Additional observations from a re-analysis of the deposited data

Results flagged for a closer look

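BHLHE40 was listed higher with DHA than with oleic acid in 5 of 5 experiments without BTC and lower in 5 of 5 with BTC. The listed values of the same contrast thus pointed in opposite directions at the 2 levels of BTC. The test of that change gave -1.99 (95% interval -3.16 to -0.83, unadjusted p = 0.00147), which did not pass over all genes (limma adjusted p = 0.999). The gene was covered by 0 to 62 reads per library. In experiment 5 it had 0 reads in DHA+BTC, which allows up to 2.41 CPM, and 5 reads (1.01 CPM) in OLA+BTC. The sign of that pair is therefore not settled. In OLA+Veh it had 1, 2 and 2 reads in experiments 2, 4 and 5. In DHA+BTC cells of experiment 1, KDM3A at 72.5 CPM and EPAS1 at 98.4 CPM stood apart from the other 4 libraries of their group on the CPM scale, with a gap to the nearest library of 0.862 and 0.718 of the group's range (Dixon's critical value 0.710). On the log2(CPM + 1) scale, which the tests used, 0 libraries stood apart. Chance would mark about 1 in 20 of the 48 combinations of gene and group examined on each scale. Without that library the difference between DHA and vehicle averaged over BTC was 0.77 in KDM3A and 0.22 in EPAS1, beside 0.94 and 0.31 with it, and neither passed in either case (limma adjusted p = 0.181 and 0.410 without it).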

How the results depend on the processing

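The call on BNIP3 for DHA averaged over BTC held in every alternative run, against vehicle (1.22 to 1.47) and against oleic acid (1.16 to 1.34). No difference of the 8 genes that was called changed sign. Of the 8 genes, 3 were called for DHA against vehicle, 1 with no replicate block, and 2 to 4 on leaving out 1 library. Smaller moves of this count and of those below are not all listed. The BNIP3L call against vehicle was also lost without experiment 5, without the 3 libraries of fewest reads and with libraries of an experiment averaged. DESeq2 added EPAS1. Against oleic acid 2 were called, 1 with no replicate block, with libraries of an experiment averaged, without the 3 libraries of fewest reads and without experiment 3, 4 or 5, and 4 with median-of-ratios scaling, edgeR, DESeq2 and without experiment 2 (2 to 3 on leaving out 1 library). For DHA without BTC 1 was called, 0 with no replicate block and 2 with DESeq2 (1 on leaving out any library). For DHA with BTC 2 were called, 0 with no replicate block or with only the groups compared, and 1 without the 3 libraries of fewest reads and without experiment 1, 3, 4 or 5 (1 to 2 on leaving out 1 library). For oleic acid, BTC and the interaction of DHA with BTC, 0 of the 8 were called in every alternative run. Over all genes, DHA against vehicle called 1621 genes, 104 with no replicate block, 577 without the 3 libraries of fewest reads, 784 with libraries averaged, 801 without experiment 5 and 950 with edgeR, and against oleic acid 1719, 68, 541, 771, 669 and 965. The split into higher and lower calls against vehicle was 352 and 1269, against 528 and 753 (median of ratios), 520 and 661 (quantiles) and 645 and 740 with DESeq2. Where an alternative ended or added a call, the cause was not tested. Depth limits NDRG1, BHLHE40, EGLN1 and EGLN3 most, since 3 reads stood for up to 2.41 CPM.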
